A study of Mus musculus with 3 samples.

Results

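The response of mouse T lineage cells to pAsc (phospho-ascorbate), a stable derivative of vitamin C, was compared between 72 h and 24 h of exposure. For each probe the measure is a difference of log2 ratios. The log2 ratio of treated over untreated signal at 24 h was subtracted from the same ratio at 72 h, so a positive value means that the ratio was higher at 72 h. A probe was included where it was no control and was well above background in both colours of both arrays. This held for 23677 of 41174 probes, which stand for 15780 of 27729 genes. A gene was represented by its brightest included probe.

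All T lineage cells were derived from C57BL/6 bone marrow progenitors, which the labels give as the cell type. They were co-cultured with OP9-DL1 stromal cells, a line that presents a Notch ligand, in the presence of Flt3L and IL7. The 24 h array set cells of culture day 14, with 800 µM pAsc for the last 24 h, against untreated cells of day 14. The 72 h array set cells of day 17, with 800 µM pAsc for the last 72 h, against untreated cells of day 17. Untreated RNA was labelled with Cy3 and treated RNA with Cy5 on both arrays, so a dye effect that is the same for a probe on both arrays cancels in the difference. The stroma was depleted before RNA was taken, by letting it adhere for 30 min. An array of OP9-DL1 cells alone (strain B6-C3Hf1, labelled osteoblast), untreated against 24 h of pAsc, served here only to show which genes were bright in stroma. Each time was measured on 1 array, with no replicate and no dye swap. No test was therefore possible, no p-value is given, and "higher" and "lower" describe these arrays. Exposure and culture day changed together, so a longer exposure and an older culture cannot be told apart.

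T cells arise from multipotent blood progenitors that receive Notch signals in the thymus, or here from the stroma. They lose the stem and progenitor programme, including Cd34, Lyl1 and the potential for other lineages, and then commit to the T lineage at the stage marked by the interleukin-2 receptor alpha chain Il2ra (CD25). After the T cell receptor beta chain is tested they gain the coreceptors CD8 and CD4. The kinase Zap70 relays the signal of the T cell receptor during the positive selection that follows. Ascorbate is a cofactor of iron-dependent dioxygenases, among them the Tet enzymes that oxidize methylated DNA and the JmjC histone demethylases. The title of the series names positive selection as its subject.

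Five-prime flanks of 5 genes are shown as examples of called coreceptor, cytokine response, progenitor and mast cell genes. Cd8b1, whose ratio differed more than that of Cd8a, is named only. Each is the stretch of 250 bases before the transcript start in the RefSeq promoter table (build GRCm38.p6), written 5′ to 3′ on the strand of the gene. Cd8a, a coreceptor chain, lies on the plus strand at chr6:71373177-71373426. Cish, an inhibitor that is itself switched on by cytokine signals through STAT5, lies on the plus strand at chr9:107296409-107296658. Cd34, the progenitor surface sialomucin, lies on the plus strand at chr1:194938571-194938820. Lyl1, a helix-loop-helix factor of blood progenitors, lies on the plus strand at chr8:84701207-84701456. Cpa3, the mast cell carboxypeptidase that early progenitors also express, lies on the minus strand at chr3:20242182-20242431. Capitals mark GATAA, the core bound by GATA factors, and CANNTG, the E-box bound by helix-loop-helix factors such as Lyl1, on either strand.
Cd8a: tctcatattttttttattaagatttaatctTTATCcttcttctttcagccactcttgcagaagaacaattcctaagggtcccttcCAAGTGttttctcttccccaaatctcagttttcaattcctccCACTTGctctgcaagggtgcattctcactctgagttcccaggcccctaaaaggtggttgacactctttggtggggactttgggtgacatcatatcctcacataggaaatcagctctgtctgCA
Cish: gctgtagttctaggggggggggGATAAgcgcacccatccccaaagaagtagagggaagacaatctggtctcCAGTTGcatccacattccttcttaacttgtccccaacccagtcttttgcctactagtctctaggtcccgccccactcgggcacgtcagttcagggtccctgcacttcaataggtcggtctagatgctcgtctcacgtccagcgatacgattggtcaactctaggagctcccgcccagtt
Cd34: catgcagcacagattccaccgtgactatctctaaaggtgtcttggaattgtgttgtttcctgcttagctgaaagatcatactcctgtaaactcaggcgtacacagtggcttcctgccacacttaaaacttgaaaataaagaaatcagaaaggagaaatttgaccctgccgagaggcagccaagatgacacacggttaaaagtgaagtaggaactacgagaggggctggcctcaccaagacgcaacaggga
Lyl1: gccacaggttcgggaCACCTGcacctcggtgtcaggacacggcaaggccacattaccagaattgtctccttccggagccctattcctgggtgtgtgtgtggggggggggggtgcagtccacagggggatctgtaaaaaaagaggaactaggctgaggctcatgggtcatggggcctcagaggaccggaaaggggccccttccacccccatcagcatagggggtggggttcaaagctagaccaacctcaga
Cpa3: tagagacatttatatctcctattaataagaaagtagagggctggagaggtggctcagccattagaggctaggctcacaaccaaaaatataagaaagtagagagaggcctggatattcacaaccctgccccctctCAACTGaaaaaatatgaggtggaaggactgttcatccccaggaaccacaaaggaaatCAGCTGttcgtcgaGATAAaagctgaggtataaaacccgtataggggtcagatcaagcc

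The flank of Cpa3 held GATAA at -45 and E-boxes at -116 and -59, counted in bases from the transcript start. The flank of Cd8a held GATAA at -220 and E-boxes at -165, -123 and -2, the last of which runs past the end of the printed stretch. That of Cish held GATAA at -228 and an E-box at -179, and also ACGTG, the core of hypoxia response elements, at -99 and -47. Lyl1 had an E-box at -235, and the Cd34 flank as printed had neither motif. Over promoters of 300 bases (250 before and 50 after the start), GATAA on either strand was found in 25.8% of all 27025 promoters. It was found in 16.4% of the 10548 promoters of measured genes, in 7 of the 21 promoters found for genes higher at 72 h and in 10 of the 45 found for genes lower at 72 h. CANNTG was found in 72.1% of all promoters, in 63.7% of those of measured genes, in 12 of 21 for the higher genes and in 34 of 45 for the lower. For ACGTG the shares were 19.7% of all promoters and 25.2% of those of measured genes. It was found in 8 of 21 for the higher genes and in 5 of 45 for the lower. These are matches of letters in a fixed window and no measurement of binding.

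A small share of genes had ratios at least 2-fold apart between the times, and their number depended on the processing. The ratio was at least 2-fold higher at 72 h for 30 genes (0.19% of 15780) and at least 2-fold lower for 57 (0.361%), together 87 genes (0.551%). The total was 182 with a background offset of 0, 274 with plain background subtraction and 278 with the deposited log ratio. Counted by probe, 35 of 23677 (0.148%) were higher and 69 (0.291%) were lower. Among the higher genes were Cd8b1, Cd8a, Osm and Cish, and among the lower ones Cd34, Lyl1, Cpa3, Vpreb1 and Fos. Over all measured genes the difference had a median of -0.03 and an SD of 0.25 across genes, and it was above 0 in 43.9% of them. The scaling of the arrays moves these counts. When each array was centred on the median of all probes in place of loess, the median of all genes was 0.12, and 59.7% of the called genes were higher at 72 h in place of 34.5%. All 87 called genes kept their direction under that scaling, but only 40 of the 57 lower genes, against 30 of the 30 higher, were still 2-fold apart. Hmox1, Il1rn and Iigp1 were among those no longer 2-fold lower. The gene nearest above the threshold was Edn1 at 1.00, named here for that reason alone, and the cytokine gene Tnf was just below it at 0.998.

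**Figure D1:**
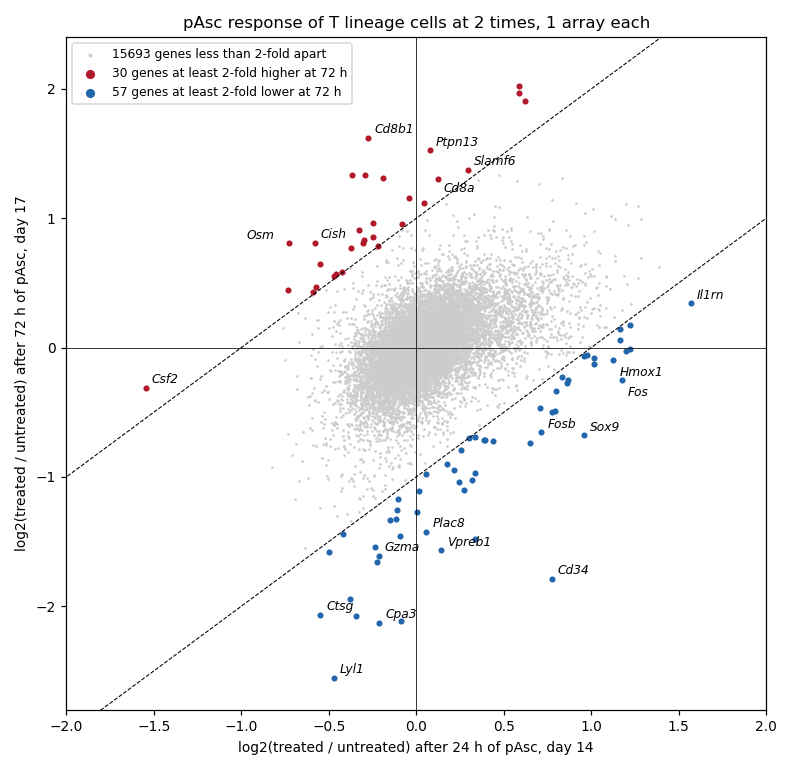
Log2 ratio of treated over untreated signal after 72 h of pAsc (vertical) against that after 24 h (horizontal), 1 point per gene, with dashed lines where the 2 ratios are 2-fold apart. Red points are the 30 genes with ratios at least 2-fold higher at 72 h, blue points the 57 at least 2-fold lower, and grey points the other genes; Cd8b1 lies highest above the upper line and Cd34 lowest below the lower one.

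The repeat spots of a probe had a log2 SD of the difference of 0.08 (157 probes with 10 spots each), and different probes of a gene had an SD of 0.18 (5604 genes). Neither covers the spread between cultures, which was not measured. Of the 87 called genes 19 had several measured probes: in 16 of them all probes had the same sign, and in 4 all probes were at least 2-fold apart. T lineage markers were present in all 4 RNA samples, with 10 of 10 measured. Cd3g, a chain of the T cell receptor complex, had log2 levels of 15.23 (untreated) and 15.37 (treated) at day 14 and of 15.07 and 14.73 at day 17, against 6.14 in untreated stroma. Levels here and below are log2 signals scaled between arrays, which may be compared between samples for a gene but not between genes. Markers of stroma were also present. Of 41 stromal genes 38 were above background in untreated and 40 in treated cells of day 14, and 40 and 41 at day 17. That list also holds Thy1, a T lineage marker here, with a level of 6.10 in untreated stroma and 10.84 in untreated cells of day 14. The summed linear level of the 37 measured in both colours of both arrays was 164% of the untreated sum in treated cells of day 14. At day 17 it was 141%. The brightest genes weigh most in such a sum. In bulk RNA, fewer cells of a type and less RNA per cell cannot be told apart.

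Both chains of the CD8 coreceptor had clearly higher ratios at 72 h than at 24 h. Cd8b1, the beta chain (mm9 chr6:71287068-71287126), had log2 levels of 7.96 in untreated and 7.69 in treated cells at day 14, and of 11.25 and 12.87 at day 17. It was thus higher at day 17 with or without pAsc, and more so with it. Its log2 ratio was -0.27 at 24 h and 1.62 at 72 h, a difference of 1.90, the largest positive one measured. Cd8a, the alpha chain, had levels of 6.63 and 6.75 at day 14 and of 9.11 and 10.42 at day 17. The treated cells of day 17 were again highest. Its ratio was 0.12 at 24 h and 1.31 at 72 h, and its 3 probes gave differences of 1.18 to 1.57. At day 14 Cd8a was near the lower end of the scale, where the background offset shrinks ratios. The deposited log ratio at 24 h was 0.21 on the log2 scale. Centring on all probes gave 1.86 for the brightest Cd8a probe. Cd4, the other coreceptor, was near the lower end of the scale in all 4 samples, between 6.43 and 6.50, and its difference was -0.11.

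Among genes of T cell receptor signalling and selection, a few single genes had higher ratios at 72 h while the lists lay near 0 or below it. Zap70, the receptor-proximal kinase, had levels of 10.34 untreated and 10.69 treated at day 14, and of 10.58 and 11.88 at day 17. Only the treated cells of day 17 stood apart, with a ratio of 2.45-fold at 72 h against 1.28-fold at 24 h. The difference of 0.94 did not reach the 2-fold rule under loess and passed it with centring on all probes (1.16) or on measured probes (1.05). Slamf6, a SLAM family receptor of developing T cells, did reach it at 1.08, with levels of 7.72 and 8.02 at day 14 and of 8.53 and 9.91 at day 17. Its other probe gave 0.63. Themis, which tunes receptor signals during selection, had a difference of 0.65 (0.25 by its other probe). Cd2, an adhesion receptor, had one of 0.68. Tcra, the receptor alpha chain locus, had one of 0.47, with its 3 probes between 0.04 and 0.47. These were all ratios that were higher at 72 h but short of 2-fold. None of the 28 kinases and adaptors was 2-fold apart (median -0.02), nor were the 16 genes of receptor rearrangement (median -0.08) or the 6 chains of CD3 and the receptor (median -0.23, 1 above 0). Of 33 surface markers of selection and maturation, 1 was higher by 2-fold, 0 were lower, and 17 were above 0.

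**Figure D2:**
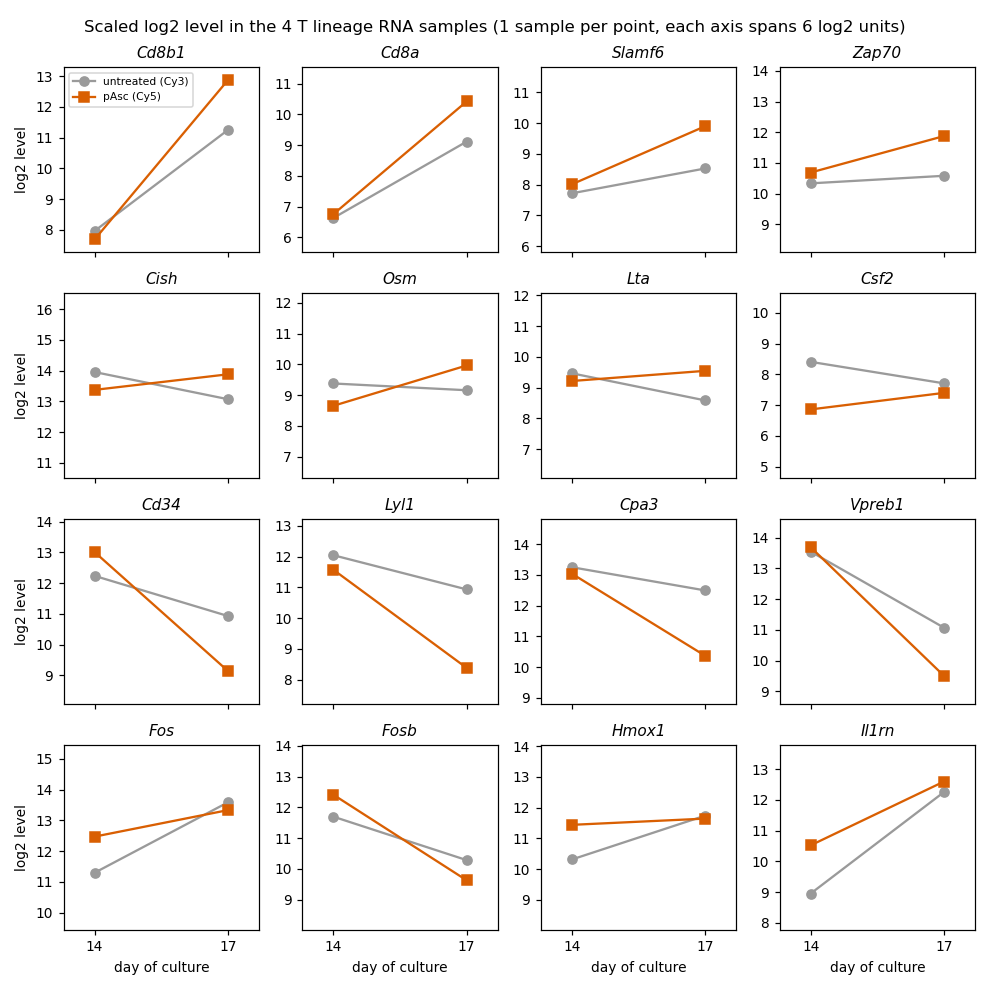
Scaled log2 level (vertical) of 16 genes at culture days 14 and 17 (horizontal) in untreated cells (grey circles) and pAsc-treated cells (orange squares), 1 RNA sample per point and 6 log2 units per axis. The treated sample of day 17 is the highest for Cd8b1, Cd8a, Slamf6 and Zap70 and the lowest for Cd34, Lyl1, Cpa3, Vpreb1 and Fosb.

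Markers of the stages before CD8 differed in direction. Il2ra, the CD25 chain, had levels of 13.36 untreated and 13.18 treated at day 14, and of 12.74 and 11.65 at day 17. The treated cells of day 17 were lowest. Its ratio was -0.18 at 24 h and -1.09 at 72 h, and its 4 probes gave differences of -0.91 to -0.66, all short of 2-fold. Ly6d, a surface antigen of lymphoid progenitors, was at -0.70. The chemokine receptor Ccr9, which is not taken here as a marker of these stages, was at -0.80. In untreated cells Ccr9 had levels of 10.41 at day 14 and 11.41 at day 17. Kit, the stem cell factor receptor, went the other way at 0.74, with levels of 12.29 and 12.06 at day 14 and of 11.89 and 12.40 at day 17. T lineage commitment factors as a group stood close to all genes, with a median of -0.15 over 20 genes, none 2-fold apart and 7 above 0. That median was 0.02 with centring on all probes. Among them Gata3 was at 0.36, Tcf7 at -0.19 (0.02 by its other probe) and Bcl11b at -0.51 (-0.10 by its other probe). Notch receptors and targets had a median of -0.11 over 15 genes, none 2-fold apart, and of 0.10 with centring on all probes.

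The progenitor genes held the lowest values. Cd34 (mm9 chr1:196787392-196787451) had levels of 12.23 untreated and 13.01 treated at day 14, and of 10.93 and 9.14 at day 17. It was higher with pAsc at day 14 and lower with pAsc at day 17. Its ratio was 1.71-fold higher in treated cells at 24 h and 3.46-fold lower at 72 h, so the ratios were 5.91-fold apart (a difference of -2.56). Lyl1 had levels of 12.05 and 11.58 at day 14 and of 10.94 and 8.38 at day 17. The treated cells were the lower ones at both days, with log2 ratios of -0.47 and -2.55, and the difference was -2.08.

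Lmo1, a LIM-domain partner of such helix-loop-helix factors, had levels of 9.99 and 9.77 at day 14 and of 9.05 and 7.40 at day 17, and a difference of -1.43. Nfe2, a bZIP factor of the megakaryocyte and erythroid lines, had ratios of -0.24 and -1.54 and a difference of -1.30. In both, the treated cells were slightly lower at 24 h and much lower at 72 h. Muc13, a mucin of blood progenitors, was at -1.08. Short of 2-fold were Erg at -0.95 and Myb at -0.89, factors of early blood cells, and the receptor Cd93 at -0.71. The probes of Myb ran from -0.89 to -0.36, and the other probe of Cd93 gave -0.39. The lists as a whole were mixed. Of 22 progenitor transcription factors 3 were 2-fold lower, 0 were 2-fold higher and 9 were above 0, with a median of -0.21 against -0.03 for all genes. Of 16 progenitor surface markers 2 were 2-fold lower, 0 were 2-fold higher and 4 were above 0 (median -0.16). Gata2, a factor of progenitors and mast cells, was at 0.60, and Flt3 was not above background in both colours of both arrays.

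B lineage genes had the lowest median of the 33 lists. It was -0.62 over 18 genes, with 5 genes 2-fold lower, 0 higher and 5 above 0, and between -0.71 and -0.58 under every alternative processing run. The pre-B-cell receptor is built from the surrogate light chains Vpreb1 and Igll1, and Blnk is the adaptor that relays its signal. Vpreb1 had levels of 13.54 untreated and 13.69 treated at day 14, and of 11.07 and 9.50 at day 17. Blnk had levels of 12.70 and 13.02 at day 14 and of 9.94 and 8.92 at day 17. Both were lower at day 17 than at day 14 even without pAsc, and lower again with it. Their differences were -1.71 and -1.34. Igll1 was at -1.29 (-1.95 with the deposited log ratio), Vpreb3, which associates with the same receptor, at -1.31 and the transcription factor Spib at -1.05. Other genes of the B lineage were near 0, among them Cd79b at 0.04, Ms4a1 at 0.07 and Ighm at -0.07. The summed level of the 18 measured B lineage genes in treated cells was 106% of that in untreated cells at day 14 and 75.5% at day 17. The brightest genes weigh most in this sum, and some are not particular to B cells. Cd24a, also listed as a selection and maturation marker, had day 17 levels of 13.69 untreated and 12.90 treated. Rag1, also listed under receptor rearrangement, had 11.99 and 12.01. The part of a change in the number of B lineage cells in the values of the B lineage genes was not tested.

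Granule genes of mast and myeloid cells were lower as single genes rather than as lists. Cpa3 had levels of 13.25 untreated and 13.03 treated at day 14, and of 12.49 and 10.36 at day 17. With pAsc it was 1.16-fold lower at day 14 and 4.37-fold lower at day 17, a difference of -1.92. The other measured mast cell and basophil genes, 6 in number, lay between -0.46 and 0.76. Among them were Il1rl1, the IL-33 receptor, at 0.76 (0.09 by its other probe) and Hdc, the histamine-forming enzyme, at -0.07. The median over all 7 genes was -0.17 and ran from -0.54 to 0.07 under the alternatives. Ctsg, the neutrophil protease cathepsin G, had levels of 10.52 and 9.97 at day 14 and of 8.50 and 6.43 at day 17. It was lowest by far in treated cells of day 17, and its difference was -1.52 (-2.66 with the deposited log ratio). Lyz2, the macrophage lysozyme, was at -1.27 and Adgre1, a macrophage surface receptor, at 0.96. Lyz2 was brighter in untreated stroma (9.91) than in untreated T lineage cells of day 14 (9.28) and day 17 (8.73). The part of stromal RNA in its value was not tested. Of 15 myeloid genes 2 were 2-fold lower and 7 were above 0. Plac8, a cysteine-rich protein of immature blood cells, had levels of 15.80 and 15.85 at day 14 and of 15.53 and 14.10 at day 17, and a difference of -1.48.

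Cytotoxic genes split. Gzma, granzyme A, had levels of 15.67 untreated and 15.46 treated at day 14, and of 15.21 and 13.60 at day 17, and a difference of -1.39. Gzmb, granzyme B, had levels of 15.32 and 15.15 at day 14 and of 14.42 and 15.08 at day 17, and a difference of 0.82. So treated cells of day 17 held less Gzma and more Gzmb signal than untreated cells of that day. Sox13, a factor of gamma-delta T cells, was at -0.97. Of 25 such genes 1 was 2-fold lower, 0 were 2-fold higher and 10 were above 0. The adult beta-globin probe set named Hbb-bt gave -2.02, with 4 probes between -2.08 and -0.63, and it shares near-identical copies with other globin genes. The alpha-globin Hba-a1 was at 0.72 and thus of the opposite sign. Of the 11 measured genes in the list of erythroid and platelet genes 0 were 2-fold apart, but that list holds neither Hbb-bt nor Nfe2.

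**Figure D3:**
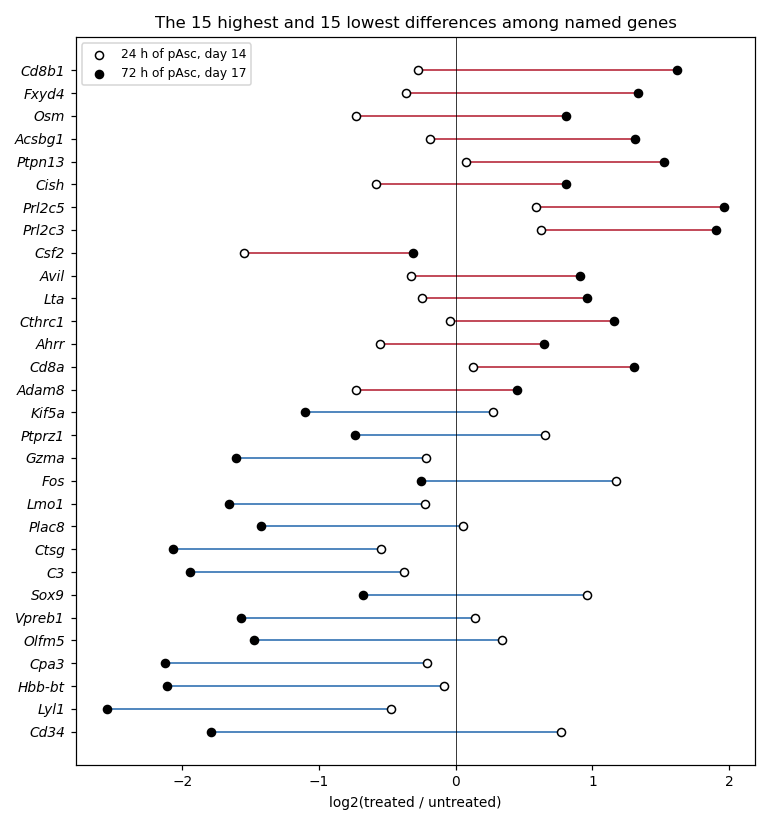
Log2 ratio of treated over untreated signal at 24 h (open circles) and 72 h (filled circles) for the 15 highest and the 15 lowest differences among called genes with a gene name whose probes had the same sign. Lines join the times of a gene, red where the ratio was higher at 72 h and blue where it was lower; Cd34, Sox9, Ptprz1, Osm, Cish and Ahrr cross 0 with both ends beyond 0.5.

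Cish, Socs1 and Il2rb, genes of cytokine signalling, were lower in treated cells at 24 h and higher at 72 h. Cish had levels of 13.95 untreated and 13.37 treated at day 14, and of 13.07 and 13.88 at day 17. The order of the samples was thus reversed between the days, with log2 ratios of -0.58 and 0.81 and a difference of 1.39. Socs1, an inhibitor of the same family, went the same way with ratios of -0.22 and 0.41 and a difference of 0.63. Il2rb, the beta chain shared by the IL-2 and IL-15 receptors, had ratios of -0.25 and 0.41 and a difference of 0.66. Il7r, the receptor of the IL7 in the medium, was lower in treated cells at both times, with ratios of -0.68 and -0.32. The rest of the pathway was mixed, with Il2ra at -0.91, the lowest of the list. Of the 16 genes of common gamma chain receptors and their signal relay, 1 was 2-fold higher, 0 were 2-fold lower and 9 were above 0. Their median difference of 0.21 lay between 0.16 and 0.37 under the alternatives. It was the highest of the 33 lists under loess, close to the 0.20 of cholesterol and fatty acid genes, which were higher with centring on all probes (0.38 against 0.37).

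Secreted factors followed several courses. Osm, oncostatin M, a cytokine of the IL-6 family, had levels of 9.38 untreated and 8.66 treated at day 14, and of 9.16 and 9.97 at day 17. It was lower with pAsc at day 14 and higher with pAsc at day 17, with a difference of 1.53 and 1.07 by its other probe. Lta, lymphotoxin alpha, had levels of 9.46 and 9.22 at day 14 and of 8.58 and 9.55 at day 17, and a difference of 1.21. Tnf, encoded beside it, had ratios of -0.59 and 0.40. Csf2, the growth factor GM-CSF, had levels of 8.41 and 6.86 at day 14 and of 7.71 and 7.40 at day 17. Its difference of 1.24 came from a low value in treated cells of day 14 and not from a high one at day 17. The ratio was 2.92-fold lower at 24 h and 1.24-fold lower at 72 h. Il1rn, the IL-1 receptor antagonist, had levels of 8.96 and 10.52 at day 14 and of 12.26 and 12.60 at day 17, and a difference of -1.23. Of 18 effector cytokines and chemokines 2 were 2-fold higher, 1 was 2-fold lower and 10 were above 0.

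Immediate-early genes, which cells switch on within minutes of a stimulus, had a median log2 ratio of 0.44 at 24 h, with 22 of 27 above 0 and 4 at least 2-fold higher. At 72 h the median was 0.12, with 17 above 0 and 1, Arc, at least 2-fold higher (1.01 at 24 h and 1.07 at 72 h). Fos had levels of 11.30 untreated and 12.47 treated at day 14, and of 13.59 and 13.34 at day 17. Untreated cells of day 17 were the highest, so the lower ratio came with a higher untreated level. Fosb, its relative, had levels of 11.70 and 12.41 at day 14 and of 10.29 and 9.63 at day 17, and the treated cells were highest at day 14 and lowest at day 17. Klf4, a zinc finger factor that restrains proliferation, had levels of 15.32 and 16.09 at day 14 and of 14.50 and 14.01 at day 17. Differences were -1.43 for Fos, -1.37 for Fosb and -1.27 for Klf4.

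Atf3, a stress-responsive bZIP factor, had levels of 9.73 and 10.93 at day 14 and of 6.84 and 6.81 at day 17. A gap between treated and untreated cells was thus seen only at the earlier day, when the gene was brightest. At day 17 Atf3 was near the lower end of the scale, where the background offset shrinks ratios. The deposited log ratio at 72 h was -0.24 on the log2 scale. Jun was at -0.99, Dusp1, a phosphatase of MAP kinases, at -0.89 and Egr1 at -0.65. Nr4a1 at 0.47, Egr2 at 0.36 and Egr3 at 0.51 had ratios that were higher at 72 h, while Nr4a2 was at -0.40. Of the 27 immediate-early genes 4 were 2-fold lower, 0 were 2-fold higher and 7 were above 0, with a median of -0.19 (between -0.27 and -0.04 under the alternatives).

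Some stress genes with the same course were brighter in stroma than in T lineage cells. Hmox1, heme oxygenase, had levels of 10.32 untreated and 11.44 treated at day 14, and of 11.74 and 11.65 at day 17, against 13.19 in untreated stroma. Gdf15, a stress-induced cytokine, had levels of 9.90 and 11.12 at day 14 and of 9.91 and 9.90 at day 17, against 11.97 in stroma. Sox9, a factor of cartilage and other mesenchyme, had levels of 9.78 and 10.74 at day 14 and of 9.34 and 8.67 at day 17, against 10.96 in stroma. In each the treated cells of day 14 stood above the untreated cells of that day, and stroma was brighter than either. Their differences were -1.22, -1.23 and -1.64. Il1rn was also brighter in stroma, at 13.60, and Hspb1, a small heat shock protein, had a difference of -0.77 and a stromal level of 13.29. Of the 57 genes lower at 72 h, 13 were at least 2-fold brighter in untreated stroma than in untreated T lineage cells of either day, against 22.0% of all measured genes. Of the 30 higher genes, 3 were. The 37 measured stromal markers had a median log2 ratio of 0.63 at 24 h and of 0.39 at 72 h and a median difference of -0.25, with 0 of them 2-fold apart and 6 above 0. That median was 0.09 with centring on all probes. Of these markers 7 were not at least 2-fold brighter in stroma, among them Thy1 (0.31), which is also a T lineage marker. Postn, Fbn1 and Col1a1, matrix genes of stroma, were at -0.42, -0.17 and -0.02. The part of stromal RNA in the values of these genes was not tested. Without the genes brighter in stroma 27 genes were higher and 44 lower.

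Over the whole set, 0 of the 87 called genes were past 2-fold at both times. Of the 57 lower genes, 23 were within 0.5 of 0 on the log2 scale at 24 h and past 2-fold at 72 h, as Vpreb1, Cpa3, Lyl1 and Gzma were. In 10 the order was reversed, with a ratio past 2-fold at 24 h and within 0.5 of 0 at 72 h, as in Fos, Atf3, Hmox1 and Gdf15. Over all measured genes 0.33% were past 2-fold higher and 0.00634% past 2-fold lower at 24 h, and 0.209% and 0.393% at 72 h. Another 22 were past 2-fold at neither time, as Fosb and Sox9 were. Of the 30 higher genes, 9 were within 0.5 of 0 at 24 h and past 2-fold at 72 h, among them Cd8b1 and Cd8a, and 17 were past 2-fold at neither time, among them Cish and Osm. Ratios beyond 0.5 in opposite directions at the 2 times were found in 7 genes (0.0444%), namely Osm, Cish, Ahrr, Cd34, Sox9, Ptprz1 and Fosb. With the deposited log ratio Ptprz1 was short of 0.5 at 24 h (0.10). The ratio at 24 h was below 0 in 23 of the 30 higher genes and above 0 in 41 of the 57 lower genes. Since the 24 h ratio is subtracted in the measure, such a lean follows in part from how the genes were chosen. With centring on all probes the share below 0 at 24 h was 39.2% of the higher genes in place of 76.7%.

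Levels over time show in which cells the difference lay. Of the 57 lower genes 41 were at least 2-fold lower at day 17 than at day 14 in treated cells and 17 in untreated cells, against 5.67% and 3.64% of all measured genes. On the higher side, 14 of 30 reached at least 2-fold above day 14 in treated cells and 4 in untreated cells, against 7.21% and 7.77%. In 12 of the 30, Cish, Osm and Lta among them, the level at day 17 was below that of day 14 in untreated cells and above it in treated cells. The difference of ratios equals the change over time in treated cells minus that in untreated cells, so these counts restate the called differences and are no further evidence of them.

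The leading genes also held several with roles outside these groups. Fxyd4, a regulator of the sodium pump, had levels of 9.74 untreated and 9.38 treated at day 14, and of 9.86 and 11.19 at day 17, and a difference of 1.70. Acsbg1, an acyl-CoA synthetase, had levels of 8.40 and 8.21 at day 14 and of 9.43 and 10.75 at day 17, with ratios of -0.19 and 1.31. In both, the treated cells of day 17 stood above the other 3 samples. Ptpn13, a tyrosine phosphatase, was at 1.45 by its brightest probe and at 0.11 by the other. Ahrr, a repressor of the aryl hydrocarbon receptor, had ratios of -0.55 and 0.64, and Adam8, a membrane protease, ratios of -0.73 and 0.45. The actin-binding protein Avil was at 1.24, and Cthrc1, a secreted collagen triple helix protein, at 1.20. A pair of prolactin family members of near-identical sequence, Prl2c5 and Prl2c3, were at 1.38 and 1.28, could not be separated by their probes with confidence, and were at 2.13 each with the deposited log ratio. Both were brighter in untreated stroma (8.30 and 8.03) than in untreated cells of day 17 (7.21 and 6.82), but not of day 14 (9.90 and 9.43). Their ratios after 24 h in stroma were 0.81 and 0.66. The part of stromal RNA in their values was not tested.

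On the lower side, C3, the central complement component, had levels of 14.27 and 13.89 at day 14 and of 14.89 and 12.94 at day 17. Its brightest probe gave -1.56 and its other probe -0.29. Ptprz1, a receptor tyrosine phosphatase, had ratios of 0.65 and -0.73, or 0.10 and -1.09 with the deposited log ratio. Its probe was very bright, with untreated levels of 16.91 at day 14, 17.61 at day 17 and 17.00 in stroma. Kif5a, a kinesin motor, had ratios of 0.27 and -1.10, and Olfm5 ratios of 0.34 and -1.48. Olfm5 was near the lower end of the scale in treated cells of day 17 (6.39) and its difference was -3.14 with the deposited log ratio against -1.81. Iigp1, an interferon-induced GTPase, was at -1.16, while the 37 interferon-stimulated genes had a median of 0.01 with 19 above 0. Genes outside the naming rule, given here after their values were seen, include Myo6 at 1.44, with another probe at -0.12, Pdcd1 (PD-1) at -1.16 and the C-type lectin receptors Clec4e at -1.36 and Clec4d at -1.18.

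Genes tied to ascorbate itself lay close to the other genes. Slc23a2, the ascorbate transporter of most cells, had levels of 7.99 and 7.98 at day 14 and of 8.32 and 8.67 at day 17, and a difference of 0.35. None of 16 genes of ascorbate transport and recycling was 2-fold apart (median 0.03). The same held for 19 genes of DNA methylation and its removal (median 0.04), 24 JmjC demethylases (median -0.09) and 19 collagen-modifying enzymes (median -0.19). Among them Tet1, Tet2 and Tet3 were at -0.12, -0.09 and 0.22, Dnmt3a at -0.54, Dnmt3b at -0.46 and Gadd45g, a growth arrest gene, at 0.86. Of 43 hypoxia-inducible factors, their hydroxylases and targets, the lactate exporter Slc16a3 was 2-fold higher at 1.04 and Ankrd37, an ankyrin repeat target, 2-fold lower at -1.07, with 11 above 0. Slc16a3 was lower at day 17 than at day 14 in untreated cells (12.61 and 10.13) and in treated cells (12.52 and 11.08). Oxidative stress genes had 1 of 31 genes 2-fold lower, Hmox1 as above. Of 33 genes of the ATF4-type and unfolded protein responses 2 were 2-fold lower, Atf3 and Gdf15. Trib3, a pseudokinase of that response, was at -0.75 with ratios of -0.47 and -1.22, and its other probe gave -0.32. It was brighter in untreated stroma (11.09) than in untreated T lineage cells of day 14 (9.69) and day 17 (9.21). In stroma its ratio after 24 h was -2.15. The part of stromal RNA in its value was not tested. The 16 genes of iron handling had a median of 0.00.

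**Figure D4:**
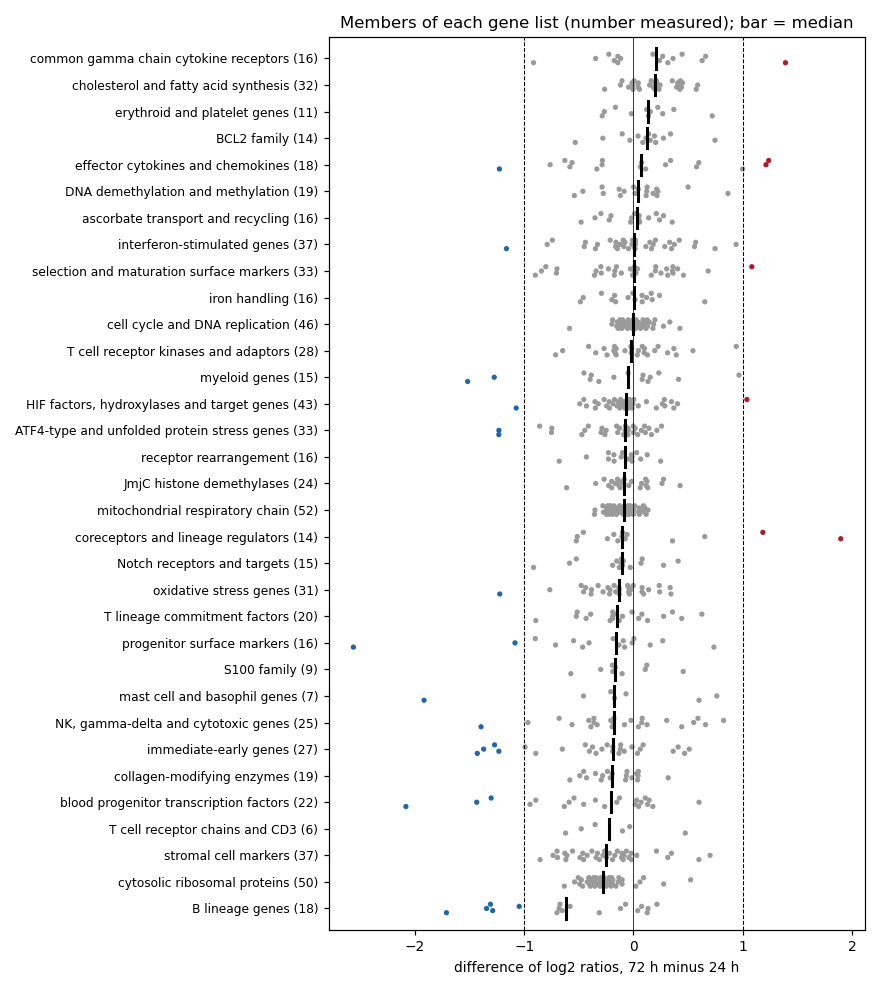
Difference of log2 ratios, 72 h minus 24 h (horizontal), for the measured members of 33 gene lists, 1 point per gene with the number of genes in brackets and a black bar at the median. Dashed lines mark 2-fold, red and blue points lie beyond them; the medians run from -0.62 for B lineage genes to 0.21 for common gamma chain receptors.

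Housekeeping groups had medians near 0, apart from 2 larger shifts that covered most of their members. Of 50 cytosolic ribosomal protein genes 45 had a lower ratio at 72 h, with median ratios of 0.49 at 24 h and 0.25 at 72 h and a median difference of -0.28. These are among the brightest genes, and centring on all probes gave a median of -0.08. Among the 32 genes that build cholesterol and fatty acids, 25 had a higher ratio at 72 h, with a median of 0.20 that was 0.38 with centring on all probes, where the median of all genes was also higher. Cyp51 and Insig1, an enzyme and a regulator of sterol synthesis, were at 0.59 and 0.57. No gene of either list was 2-fold apart. The 46 genes of the cell cycle had a median of -0.00 with 23 above 0. The 52 genes of the respiratory chain had a small median of -0.09 but also leaned to one side, with 12 above 0 and 40 below. The 14 genes of the BCL2 family, which governs cell survival, had a median of 0.13 with 10 above 0. The 9 S100 genes had a median of -0.17 and 3 above 0, and the 14 coreceptors and lineage regulators, despite Cd8a and Cd8b1, one of -0.10 with 4 above 0. Median signs this close to 0 depend on the scaling. With centring on all probes, where the median of all genes was 0.12, 24 of the 33 list medians were above 0, against 10 under loess. The 14 that turned from below to above 0 were those of coreceptors, receptor kinases, rearrangement, Notch, T lineage commitment, stroma, collagen modification, JmjC enzymes, hypoxia, oxidative stress, ATF4-type stress, S100, cell cycle and respiratory chain genes.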

How the data were processed

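Per the file headers, the authors quantified 2-colour Agilent mouse arrays with Feature Extraction 10.5.1.1 on mm9. The deposited intensity values are mean spot and median local background signals, not normalized. The deposited log10 ratio (Cy5 over Cy3) was dye-normalized by the authors (linear and LOWESS), per the file headers, and served as an alternative.

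From the intensities, limma 3.58.1 under R 4.3.3 gave log2 ratios (normexp, offset 50; loess, span 0.3; controls and 117 to 130 flagged spots per array at weight 0). Levels were Aquantile-scaled. 0 spots were saturated. Spots of a probe were averaged. RefSeq names were found by accession for 25097 probes, by symbol for 6333 and by synonym for 1640, and 8104 kept the file's name. An exon or UTR position of the probes is not given, as no annotation on mm9 was used. Counts used Python 3.11.15 and pandas 2.3.3. The steps were checked on simulated arrays. The offset shrinks differences of dim genes.

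Genes named were the 15 highest and 15 lowest called genes (2-fold, probes of the same sign, no clone names), up to 4 called members of each of 33 lists, members of lists described, and a set of marker genes. Members and lists were chosen with earlier results of these data known. Lgals7 of that set was not above background on both arrays. Processing alternatives were 11. The number of arrays, 1 per time, limits the precision. Some single genes are not reported here.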

Additional observations from a re-analysis of the deposited data

Results flagged for a closer look

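In 7 genes (0.0444% of 15780) the log2 ratio of treated over untreated cells was beyond 0.5 in opposite directions at the 2 times. With 1 array per time the difference between the times was not tested. Ratios went from below 0 at 24 h to above 0 at 72 h in Osm (a difference of 1.53), Cish (1.39) and Ahrr (1.19). They went from above 0 to below 0 in Cd34 (a difference of -2.56), Sox9 (-1.64), Ptprz1 (-1.39) and Fosb (-1.37).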

How the results depend on the processing

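All 46 called genes with a name in the rule kept their direction under the 9 alternatives that recomputed them (the 1.5-fold rule and leaving out genes brighter in stroma did not), and 43 were still 2-fold apart with centring on all probes and with the median over probes. Genes higher and lower at 72 h numbered 120 and 158 with the deposited log ratio, 70 and 112 with an offset of 0, 117 and 157 with background subtraction, and 146 and 404 at 1.5-fold. The higher ones numbered 74 with centring on all probes and 47 with centring on measured probes. Probes higher and lower numbered 183 and 213, 88 and 150, 164 and 222, and 191 and 534 in the same order, and 85 and 53 were higher under the 2 centrings. With centring on all probes the 24 h ratio was below 0 in 39.2% of the higher and above 0 in 96.0% of the lower genes. List medians moved for progenitor factors to -0.39 with the deposited log ratio and to -0.50 without the dimmest 25% of genes. For mast cell genes they moved to -0.53 with the deposited log ratio, -0.42 with an offset of 0, -0.54 with subtraction and 0.0709 without the dimmest genes. For erythroid genes they moved to 0.32 with subtraction and -0.0922 without the dimmest genes. With centring on all probes they moved to -0.0314 for CD3 and receptor chains, 0.10 for Notch, 0.0887 for stromal, 0.0122 for collagen-modifying, 0.10 for oxidative stress, 0.26 for iron, 0.0657 for S100, 0.38 for cholesterol, -0.0782 for ribosomal and 0.12 for respiratory chain genes. The stromal median was -0.0211 with centring on measured probes, and -0.0204 without genes brighter in stroma, where that of the S100 genes was 0.11. The other 309 list medians moved less. The cause of these moves was not tested. No paired analysis was possible because each time has 1 array and no replicate numbers, and for the same reason no array could be left out. Spread between cultures was not measured, and dim genes carry shrunken differences.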
